A study of Arabidopsis thaliana with 20 samples.

Results

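SDC (AT2G17690), QQS (AT3G30720) and FWA (AT4G25530) are 3 Arabidopsis thaliana genes whose transcription is classically controlled by DNA methylation, and they were taken by locus number as 3 of the 27655 genes counted in 20 RNA-seq libraries. The libraries come from 10 groups of 2, which are 5 genotypes in each of 2 tissues. The genotypes were the pol2a-1suvh2suvh9 triple mutant, the suvh2suvh9 double mutant, pol2a-2, pol2a-1 and WT. POL2A is the catalytic subunit of the replicative DNA polymerase epsilon, and the comparisons show how gene expression differs when it, SUVH2 and SUVH9, or all 3 are mutated.

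The seedlings were 20 days old and 4 to 5 plants were ground together for each RNA sample, whereas meiocytes, the cells that enter meiosis in the anther, were collected as 300 to 400 masses a replicate from floral buds of stage 9 to 10. Every genotype was grown in a greenhouse at 20 °C with 16 h of light a day, and the labels name no treatment. For 4 samples the title reads pol2a-2 but the genotype field reads pol2a-1, and the title was followed. Lesions of the alleles and the accession of the WT plants are not described in the labels.

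Cytosine methylation in plants is set up by RNA-directed DNA methylation, in which short RNAs guide a methyltransferase to matching DNA, and is kept through replication in the CG, CHG and CHH contexts (H being any base but G). SUVH2 and SUVH9 bind methylated DNA and help to bring the polymerase of that pathway to it. SDC encodes an F-box protein that is kept silent in leaves by methylation of tandem repeats before the gene, and its activation gives curled leaves. FWA encodes a homeodomain protein that is normally expressed only from the maternal copy in the endosperm and delays flowering when it is expressed elsewhere. QQS is a short gene known only from Arabidopsis thaliana that affects how carbon and nitrogen are allotted, and its level differs between plants that carry differently methylated copies.

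The DNA before the 3 genes is shown because repeats are what the silencing pathway is known to act on at SDC and FWA. Positions and bases are those of the TAIR10.1 assembly from RefSeq, plus strand, and all 3 genes are read from that strand. SDC lies at chr2:7682162-7684083, QQS at chr3:12349047-12349933 and FWA at chr4:13038360-13042464. Shifted by 32 bases, the 300 bases before SDC matched themselves at 62.3% of positions. Of 27438 windows of 300 bases before nuclear genes, 8 (0.0292%) had a best shift (between 20 and 100 bases) at least that good, and the median window reached 36.1%. Beginning at chr2:7681898 and ending 73 bases before the annotated start, 5 whole units of 32 bases and a partial one of 31 bases formed an array of 191 bases. The whole units follow, with capitals for bases that match the consensus of the array and lower case for bases that differ from it.
Unit 1, chr2:7681898-7681929: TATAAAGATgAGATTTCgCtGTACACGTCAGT
Unit 2, chr2:7681930-7681961: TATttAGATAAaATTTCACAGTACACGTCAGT
Unit 3, chr2:7681962-7681993: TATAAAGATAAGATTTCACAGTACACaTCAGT
Unit 4, chr2:7681994-7682025: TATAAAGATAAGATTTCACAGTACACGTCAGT
Unit 5, chr2:7682026-7682057: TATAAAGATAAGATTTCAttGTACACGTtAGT

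Unit 4 equals the consensus and the other units match it at 29 to 31 of 32 bases. The consensus, searched as a whole on both strands, was found in 1 of the 27438 windows, that of SDC, from which it was built. The SDC window also held 23 CHG sites, against a median of 10 over all windows, and 96.5% of windows had that many or fewer.

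Before FWA the best shift was 45 bases at 41.6% identity, a value that 4.29% of windows reached. It comes from 46 bases that are followed by a second copy with 44 of them unchanged, the last base of the first copy being the first base of the second. Capitals below mark the bases that the 2 copies share.
FWA first copy, chr4:13038249-13038294: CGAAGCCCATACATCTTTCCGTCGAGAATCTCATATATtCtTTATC
FWA second copy, chr4:13038294-13038339: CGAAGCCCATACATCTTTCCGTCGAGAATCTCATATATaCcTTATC

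QQS had its best shift at 94 bases, at 43.7% identity, which 1.35% of windows reached, and 60 of 90 bases were shared between those copies. Its window held 20 CG sites (median window 12) but 6 CHG sites, and that of FWA held 14 CG and 3 CHG sites. Of the 3 windows, that before SDC had the highest identity over the whole window at its best shift and the most CHG sites. This identity depends on how much of the window is repeated as well as on how alike the copies are. The FWA copies shared 44 of 46 bases, and the whole SDC units matched their consensus at 29 to 32 of 32 bases. Repeats at shifts outside the range scanned, or reaching beyond the windows, could not be seen. Methylation itself was not measured in these libraries.

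**Figure D1:**
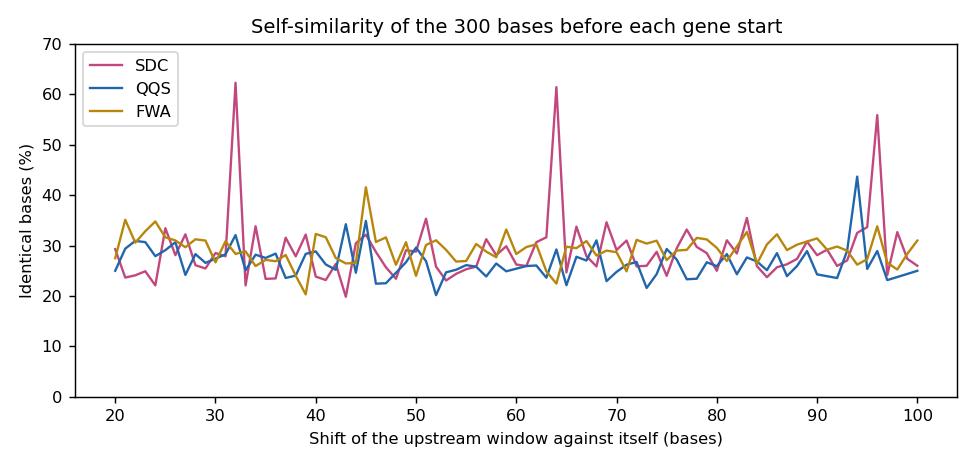
Percentage of identical bases (vertical axis) when the 300 bases before each gene are compared with themselves after a shift of 20 to 100 bases (horizontal axis), with 1 line a gene. SDC peaks at 62.3% for a shift of 32 bases and again at multiples of it, whereas the highest points of QQS (43.7%) and FWA (41.6%) stand less far above the rest.

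Libraries held 11906055 to 34451852 counted reads in seedlings and 11932325 to 20941920 in meiocytes, and CPM below are counts divided by these totals and multiplied by 1000000. Markers of the labelled tissues were high in their own tissue. The 6 meiocyte markers, DMC1 among them, summed to 10.4 to 40.2 CPM in seedling libraries and 2686 to 3288 CPM in meiocyte libraries, and 6 leaf markers to 50144 to 81330 CPM in seedlings and 236 to 1455 CPM in meiocytes. Meiocyte libraries also held 191 to 560 CPM of 6 tapetum markers. SUVH9 was at 0.522 to 1.16 CPM in the 4 triple mutant and suvh2suvh9 seedling libraries, against 29.8 and 33.8 CPM in WT seedlings. Those 4 libraries also carried 0.0215% to 0.0443% of their counts on chloroplast genes, against 2.11% to 2.42% in the other 6 seedling libraries. In seedlings the leaf markers summed to 72919 to 76815 CPM in the triple mutant and 73140 to 81330 CPM in suvh2suvh9. They summed to 67145 to 68792 CPM in WT, 64561 to 72982 CPM in pol2a-1 and 50144 to 62254 CPM in pol2a-2. Each comparison of triple mutant or suvh2suvh9 seedlings with WT carries the chloroplast difference, whose cause was not tested. In bulk tissue, fewer cells of a type and less RNA per cell cannot be told apart.

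SDC was the member with the widest range, from 0 counts in a WT meiocyte library to 1115 in a suvh2suvh9 seedling library. Per length, mean SDC was 4.80 FPKM (CPM per kilobase of exon) in triple mutant seedlings, 19.1 FPKM in suvh2suvh9 seedlings and 0.227 FPKM in WT seedlings. These use all 1625 exonic bases of SDC, most of which it shares with another gene; over its 322 unshared bases alone the same counts give 24.2, 96.3 and 1.15 CPM per kilobase. QQS reached 5.77 FPKM at most, as the mean of pol2a-1 seedlings, and FWA 0.226 FPKM, as the mean of triple mutant meiocytes. In WT seedlings the order per length was QQS at 4.69, SDC at 0.227 and FWA at 0.00755 FPKM. SDC and QQS therefore stood in opposite order in suvh2suvh9 seedlings (19.1 and 1.19 FPKM) and in WT seedlings, with either length of SDC.

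**Figure D2:**
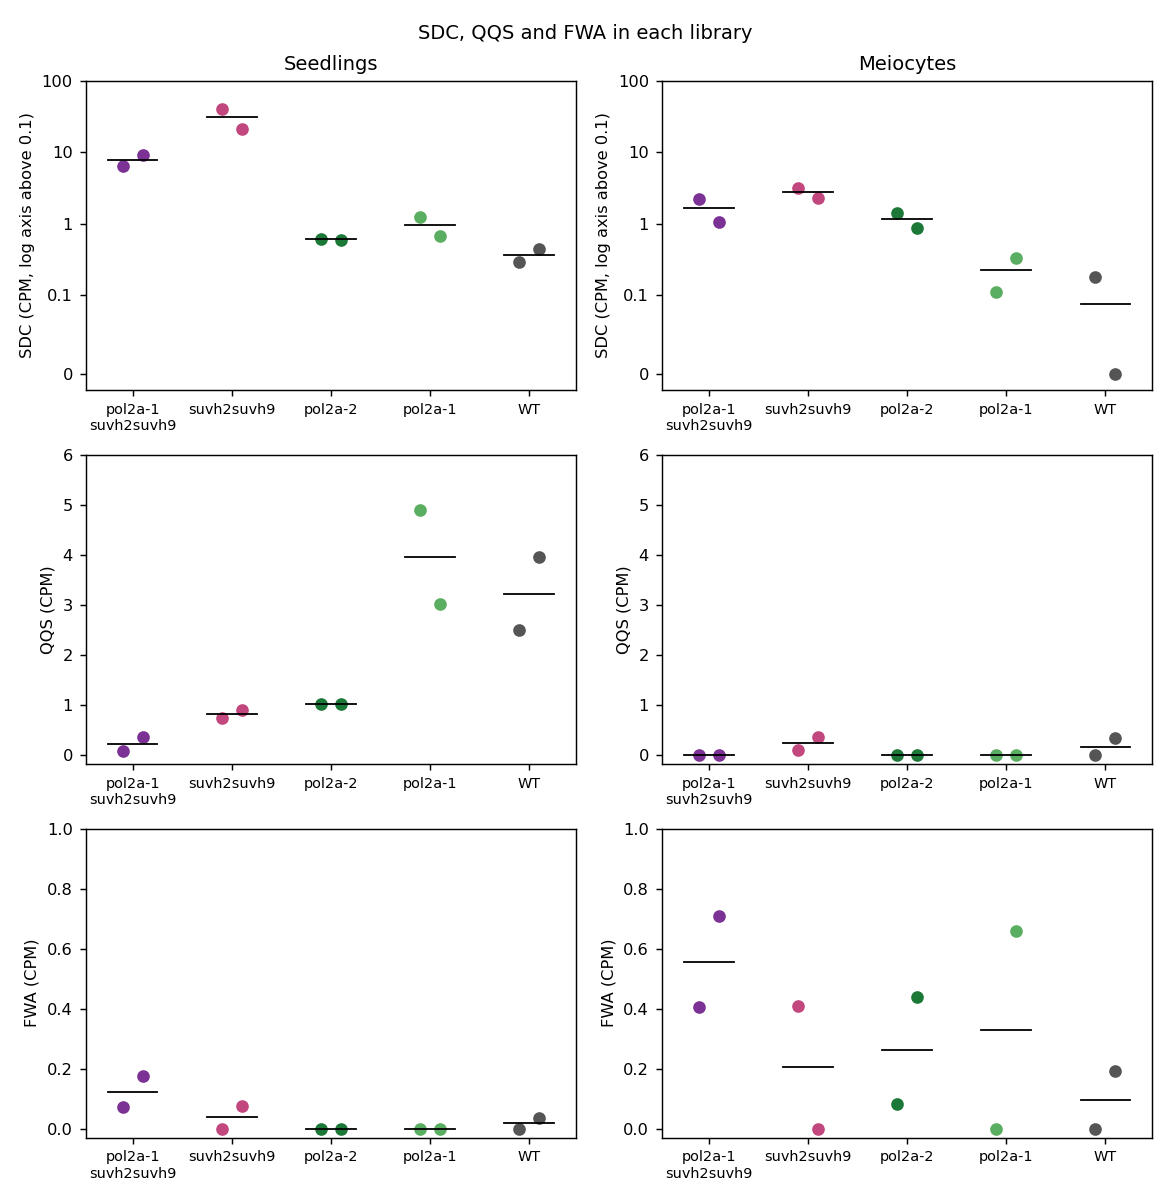
CPM (vertical axis) of SDC, QQS and FWA in every library of the 5 genotypes, seedlings on the left and meiocytes on the right; points are libraries and bars the mean of 2. The SDC axis is logarithmic above 0.1 CPM and linear below it. The 4 suvh2suvh9 and triple mutant seedling libraries lie at 6.42 CPM or more for SDC, and every other seedling library at 1.26 CPM or less.

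In seedlings SDC rose in both genotypes with SUVH2 and SUVH9 mutated and was not called in either pol2a allele. It had 6.42 and 9.19 CPM in triple mutant seedlings, 40.9 and 21.1 CPM in suvh2suvh9 seedlings, 0.614 and 0.593 CPM in pol2a-2 seedlings and 1.26 and 0.672 CPM in pol2a-1 seedlings, against 0.290 and 0.447 CPM in WT seedlings. The triple mutant and suvh2suvh9 libraries did not overlap with any other seedling library or with each other. Separation of libraries is given here and below as a description, since its share over all features was not computed. By edgeR's quasi-likelihood test over 22297 genes and transposable elements, with Benjamini-Hochberg adjustment and a call at an adjusted p under 0.05, the log2 fold change against WT was 4.43 ± 0.44 (SE) in the triple mutant (21.5-fold, adjusted p = 0.000316) and 6.41 ± 0.44 in suvh2suvh9 (85.1-fold, adjusted p = 2.5e-05). Of all features, 7.21% were called higher in triple mutant seedlings and 5.4% in suvh2suvh9 seedlings.

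The lower level in the triple mutant than in suvh2suvh9 did not pass the threshold. The log2 difference between the triple mutant and suvh2suvh9 was -1.98 ± 0.33 (adjusted p = 0.0532, 0.0538% of features called lower), and DESeq2's Wald test gave an adjusted p of 3.25e-05 for the same counts, calling 0.776% of features lower. Leaving out each library in turn, the log2 difference between these genotypes ran from -2.39 to -1.40. Whether edgeR called it depended on the library left out, and 7 of 10 such fits left it uncalled. Against pol2a-1 seedlings the triple mutant was higher by 2.97 ± 0.43 on the log2 scale (adjusted p = 0.00338, 4.91% of features called higher).

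Averaged over backgrounds with and without the pol2a-1 mutation, suvh2suvh9 raised SDC by 4.69 ± 0.31 on the log2 scale (adjusted p = 9.36e-06, 11.3% called higher). The corresponding average for pol2a-1 was -0.26 ± 0.34 (adjusted p = 0.723, 0.0224% called lower). It joins values of opposite sign, 1.46 for pol2a-1 against WT and -1.98 for the triple mutant against suvh2suvh9, so it does not show that pol2a-1 had no effect. Neither pol2a allele differed from WT past the threshold, at 0.64 ± 0.59 for pol2a-2 (adjusted p = 0.560, 1.69% called higher) and 1.46 ± 0.58 for pol2a-1 (adjusted p = 0.302, 0.0224% called higher). The departure from additive log2 effects of pol2a-1 and suvh2suvh9 was -3.44 ± 0.67, with adjusted p = 0.175 by edgeR (0.00448% of features called lower) and 0.000176 by DESeq2 (0.398% called lower).

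The exons of SDC had no 100-base window that recurs elsewhere in the genome, but 1303 of their 1625 bases (80.2%) lie over exons of AT2G17695 on the opposite strand. The library kit does not mark strand and the labels do not say how reads in shared bases were assigned. SDC reads and AT2G17695 reads there therefore cannot be told apart, and the level of SDC per length is uncertain. WT seedlings held 22 SDC counts in all beside 2368 of AT2G17695, so few AT2G17695 reads can have been counted for SDC in WT seedlings. AT2G17695 itself had 38.3 and 35.4 CPM in triple mutant seedlings, 63.2 and 44.8 CPM in suvh2suvh9 seedlings and 35.9 and 42.2 CPM in WT seedlings. Its log2 fold change against WT was -0.06 ± 0.21 in the triple mutant (adjusted p = 0.890) and 0.47 ± 0.21 in suvh2suvh9 (adjusted p = 0.188). Leaving out chloroplast and mitochondrial genes before scaling, the log2 fold change of SDC was 4.42 in the triple mutant and 6.41 in suvh2suvh9. Chloroplast genes held at most 2.42% of the counts of a seedling library, so this removal could change little but the scaling. It cannot tell apart the genotype and whatever came with the chloroplast difference.

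In meiocytes SDC counts were low, and they were highest in suvh2suvh9 and next highest in the triple mutant. Triple mutant meiocytes had 38 and 18 counts (2.20 and 1.06 CPM), suvh2suvh9 meiocytes 62 and 39 (3.16 and 2.31 CPM), pol2a-2 meiocytes 17 and 12 (1.42 and 0.881 CPM) and pol2a-1 meiocytes 2 and 6 (0.111 and 0.330 CPM). WT meiocytes had 3 and 0 counts (0.178 and 0 CPM). Triple mutant, suvh2suvh9 and pol2a-2 libraries all lay above both WT libraries, and those of pol2a-1 overlapped with WT. As in seedlings, this separation is a description only.

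Because WT meiocytes held 3 counts in all, ratios of summed counts, scaled to the summed library totals, are given with exact conditional 95% intervals that cover counting error only. The ratio to WT was 20.6 (6.71 to 103) in the triple mutant, 34.9 (11.6 to 172) in suvh2suvh9, 14.3 (4.43 to 73.4) in pol2a-2 and 2.79 (0.669 to 16.3) in pol2a-1. By edgeR over 21214 features no comparison with WT was called, with adjusted p of 0.192, 0.231, 0.325 and 0.725 in that order of genotypes. The background there was 0.0424% called higher in the triple mutant, 0% in suvh2suvh9 (637 features at an unadjusted p under 0.05, 73 called by DESeq2), 0.556% in pol2a-2 and 0.434% in pol2a-1. DESeq2 called SDC higher in triple mutant meiocytes (adjusted p = 0.0363) and suvh2suvh9 meiocytes (adjusted p = 0.0102) but not in pol2a-2 meiocytes (adjusted p = 0.112), with 2.22%, 0.344% and 1.27% of features called higher in these comparisons.

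Fitted together with the seedling libraries, the edgeR adjusted p of SDC in meiocytes was 0.00918 in the triple mutant, 0.00996 in suvh2suvh9 and 0.0406 in pol2a-2. That fit estimates spread from both tissues together. With tissues fitted apart, edgeR's common dispersion, a measure of spread between libraries, was 0.0321 in seedlings and 0.0976 in meiocytes. The share of all features called in the joint fit was not computed for these comparisons. Between triple mutant and suvh2suvh9 meiocytes the count ratio was 0.591 (0.419 to 0.828), and edgeR gave an adjusted p of 0.789 (0.00943% called lower). The averaged suvh2suvh9 effect in meiocytes had adjusted p = 0.0775 (0.203% called higher), and the difference between pol2a-2 and pol2a-1 had 0.369 (0.358% called higher). AT2G17695 had 5.10 and 2.60 CPM in triple mutant meiocytes, 5.00 and 2.37 in suvh2suvh9, 4.27 and 3.23 in pol2a-2, 0.555 and 1.82 in pol2a-1, and 1.54 and 2.77 in WT, with edgeR adjusted p against WT of 0.627 to 1. Tapetum markers summed to 415 to 492 CPM in triple mutant meiocytes, 300 to 560 CPM in suvh2suvh9, 218 to 448 CPM in pol2a-2, 191 to 283 CPM in pol2a-1 and 199 to 220 CPM in WT, and leaf markers to 759 to 1455 CPM in the triple mutant against 236 to 520 CPM in WT. Their part in the SDC counts was not tested.

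QQS moved the other way in seedlings. It had 0.0722 and 0.348 CPM in triple mutant seedlings (2 and 8 counts), 0.734 and 0.899 CPM in suvh2suvh9 seedlings, 1.02 and 1.02 CPM in pol2a-2 seedlings and 4.91 and 3.02 CPM in pol2a-1 seedlings, against 2.50 and 3.95 CPM in WT seedlings (86 and 106 counts). Every triple mutant, suvh2suvh9 and pol2a-2 library lay below both WT libraries, and the pol2a-1 libraries overlapped with WT. As for SDC, this separation is a description only. QQS fell by 3.94 ± 0.57 on the log2 scale in the triple mutant (15.4-fold lower, adjusted p = 0.00243, 6.08% of features called lower) and by 1.97 ± 0.47 in suvh2suvh9 (3.91-fold lower, adjusted p = 0.0257, 5.49% called lower), by the same edgeR test. The size in the triple mutant depended on its 2 libraries: the log2 fold change was -3.16 without triple mutant seedling replicate 1 (adjusted p = 0.0219) and -5.34 without replicate 2 (adjusted p = 0.00490).

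The suvh2suvh9 call rested on all 4 libraries compared. Without WT seedling replicate 1 or 2 its adjusted p was 0.0611 and 0.159, and without suvh2suvh9 seedling replicate 1 or 2 it was 0.134 and 0.122. With all 20 libraries in 1 fit the adjusted p of QQS was 0.0601 in the triple mutant and 0.391 in suvh2suvh9. Without organellar genes the log2 fold changes were -3.95 and -1.97.

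The pol2a alleles stood apart in QQS, though not past the edgeR threshold. Against WT the log2 fold change was -1.73 ± 0.47 in pol2a-2 (adjusted p = 0.0875, 0.937% called lower) and 0.33 ± 0.43 in pol2a-1 (adjusted p = 0.712, 0.0224% called higher). Directly compared, pol2a-2 was lower than pol2a-1 by 2.07 ± 0.48 on the log2 scale with adjusted p = 0.131 (0.152% called lower), and DESeq2 gave 0.0159 for this comparison (0.59% called lower) and 0.0295 for pol2a-2 against WT (2.04% called lower). With both alleles joined as 1 group of 4, as their genotype label reads, the log2 fold change against WT was -0.40. POL2A had 28.5 and 29.3 CPM in pol2a-1 seedlings and 30.6 and 65.9 CPM in those titled pol2a-2, against 47.2 and 41.1 CPM in WT. In meiocytes it had 89.8 and 89.5 CPM in pol2a-1 and 154.5 and 155.5 CPM in pol2a-2, against 235.8 and 164.8 CPM in WT. Which allele the samples titled pol2a-2 carry was not tested.

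QQS in the triple mutant was lower than in pol2a-1 by 4.28 ± 0.57 on the log2 scale (adjusted p = 0.00217, 5.84% called lower) and lower than in suvh2suvh9 by 1.98 ± 0.61 (adjusted p = 0.232). Without triple mutant seedling replicate 1 these log2 differences were -3.48 and -1.20, and without replicate 2 they were -5.66 and -3.38. The call against pol2a-1 was lost with all 20 libraries in 1 fit (adjusted p = 0.0527). The averaged suvh2suvh9 effect was -3.12 ± 0.37 (adjusted p = 0.000437, 12.5% called lower) and the averaged pol2a-1 effect -0.82 ± 0.38 (adjusted p = 0.296). Non-additivity of QQS was -2.31 ± 0.75 with adjusted p = 0.465. Without triple mutant seedling replicate 2 these were -3.81, -1.53 and -3.70, and non-additivity was -1.52 without replicate 1.

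In meiocytes QQS was near the limit of detection. The 6 triple mutant, pol2a-2 and pol2a-1 libraries held 0 counts, the suvh2suvh9 libraries 2 and 6 counts and the WT libraries 0 and 7 counts. A count of 0 in both libraries of a group allows up to 0.0878 CPM in the triple mutant, 0.117 CPM in pol2a-2 and 0.0829 CPM in pol2a-1, taking 3 counts over the group as the floor. The 7 counts of WT all came from 1 library. The exact 95% interval of the ratio to WT ran from 0 to 0.767 in the triple mutant. It ran from 0 to 1.03 in pol2a-2 and 0 to 0.725 in pol2a-1. These intervals cover counting error only. The WT meiocyte libraries differed by more than that, with a chi-square of 57.7 per degree of freedom over 16892 features. Since 1 WT library held 0 counts as the mutant libraries did, a lower level in a mutant was not shown. QQS did not pass the filter on low counts in meiocytes and was not tested there.

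**Figure D3:**
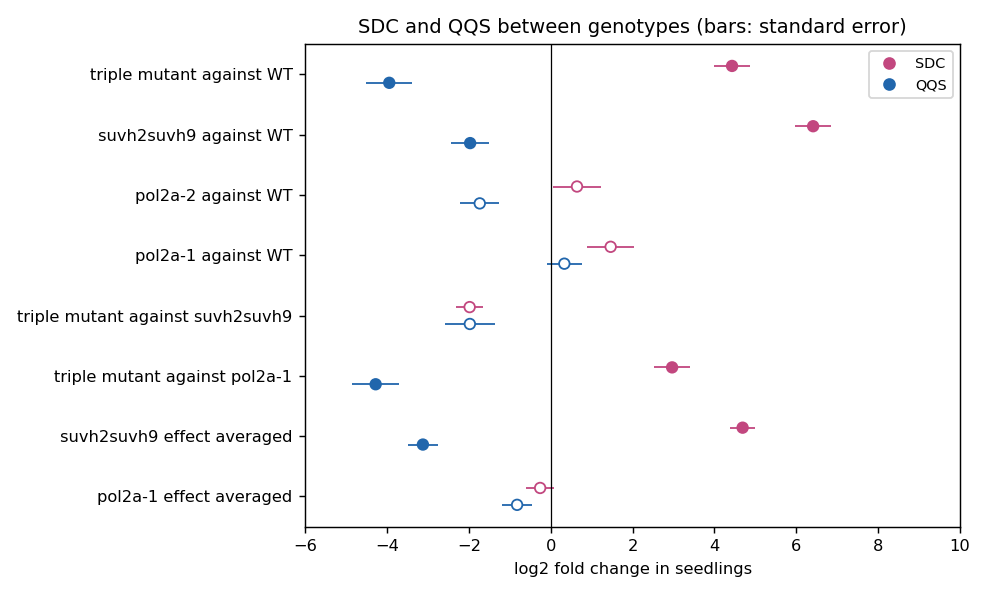
Log2 fold changes (horizontal axis) of SDC and QQS in seedlings for 8 comparisons between genotypes (vertical axis), with bars of 1 standard error; filled points passed an adjusted p of 0.05 in edgeR's test and open points did not. SDC lies at 4.43 and 6.41 and QQS at -3.94 and -1.97 in the comparisons of triple mutant and suvh2suvh9 seedlings with WT, on opposite sides of 0.

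FWA stayed close to 0 in all 20 libraries. In seedlings it had 2 and 4 counts in the triple mutant, 0 and 2 in suvh2suvh9, 0 and 0 in pol2a-2, 0 and 0 in pol2a-1, and 0 and 1 in WT, and was too low to be tested. The ratio of the triple mutant to WT seedlings was 7.25 with an exact interval of 0.880 to 334, so a difference was not detectable at this depth. In meiocytes the counts were 7 and 12 in the triple mutant, 8 and 0 in suvh2suvh9, 1 and 6 in pol2a-2, 0 and 12 in pol2a-1, and 0 and 4 in WT. Both triple mutant libraries lay above both WT libraries, and every other mutant overlapped with WT. As for SDC and QQS, this separation is a description only, since its share over all features was not computed.

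The ratio of triple mutant to WT meiocytes was 5.25 (1.75 to 21.2, counting error only) from 19 against 4 counts. No comparison of FWA with WT was called by edgeR, with adjusted p of 0.619 in the triple mutant, 1.00 in suvh2suvh9, 0.883 in pol2a-2 and 0.807 in pol2a-1. The highest group mean, 0.557 CPM in triple mutant meiocytes, was 0.226 FPKM. FWA shares 10 bases (0.405% of its exons) with MSH3.

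Between tissues, SDC and QQS were higher in WT seedlings than in WT meiocytes. SDC had 10 and 12 counts in WT seedlings against 3 and 0 in WT meiocytes, a ratio of 4.52 (1.36 to 23.6) with edgeR adjusted p = 0.0251 over 24418 features, of which 41.7% were called higher and 35.2% lower in seedlings. That call was lost without WT meiocyte replicate 2 (adjusted p = 0.204) or WT seedling replicate 2 (0.0941). QQS had 86 and 106 counts against 0 and 7, a ratio of 16.9 (8.06 to 42.7) with adjusted p = 0.00191. FWA had 1 count in WT seedlings against 4 in WT meiocytes (adjusted p = 0.420).

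No mutant effect on SDC was shown to differ between tissues. The tests of that difference gave adjusted p of 1.00 for the triple mutant, 0.795 for suvh2suvh9, 0.220 for pol2a-2 and 1.00 for pol2a-1, where 1.01%, 0.319%, 0.303% and 0.127% of features had a higher and 2.72%, 0.606%, 0.713% and 0.381% a lower effect in seedlings. For QQS the suvh2suvh9 effect had adjusted p = 0.645. Over the 10 groups SDC stood in the order suvh2suvh9 seedlings (31.0 ± 14.02 CPM, SD, n = 2), triple mutant seedlings (7.80 ± 1.95), suvh2suvh9 meiocytes (2.74 ± 0.60), triple mutant meiocytes (1.63 ± 0.81) and pol2a-2 meiocytes (1.15 ± 0.38). From triple mutant meiocytes to pol2a-1 seedlings (0.966 ± 0.416) neighbours overlapped in their libraries, as did WT seedlings, pol2a-1 meiocytes and WT meiocytes at the low end.

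None of the tested nearest genes was called. Taking 2 genes on each side gives 12 neighbours, of which 7 were tested in each tissue and 0 were called in any comparison of a mutant with WT in either tissue, where 0.00448% (pol2a-1 seedlings) to 6.08% (triple mutant seedlings) of all features were called lower and 0% (suvh2suvh9 meiocytes) to 7.21% (triple mutant seedlings) higher. In seedlings the log2 fold changes of the 7 ran from -0.11 to 0.53 in the triple mutant against WT (adjusted p 0.301 to 0.985) and from -0.63 to 0.59 in suvh2suvh9 against WT (adjusted p 0.128 to 0.560). AT2G17680, the next gene before the SDC repeats at 1783 bases from SDC, had 0 CPM in all 10 seedling libraries. On the other side of SDC, STY8, a protein kinase gene, was at 0.04 ± 0.14 and 0.23 ± 0.14 on the log2 scale in the same comparisons.

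Around FWA the transcriptional co-regulator genes SLK1 and SLK3, the mismatch repair gene MSH3 and AT4G25550 were tested. Of the neighbours of QQS, GDU6 was too low to be tested and 3 pseudogenes were not analysed here.

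**Figure D4:**
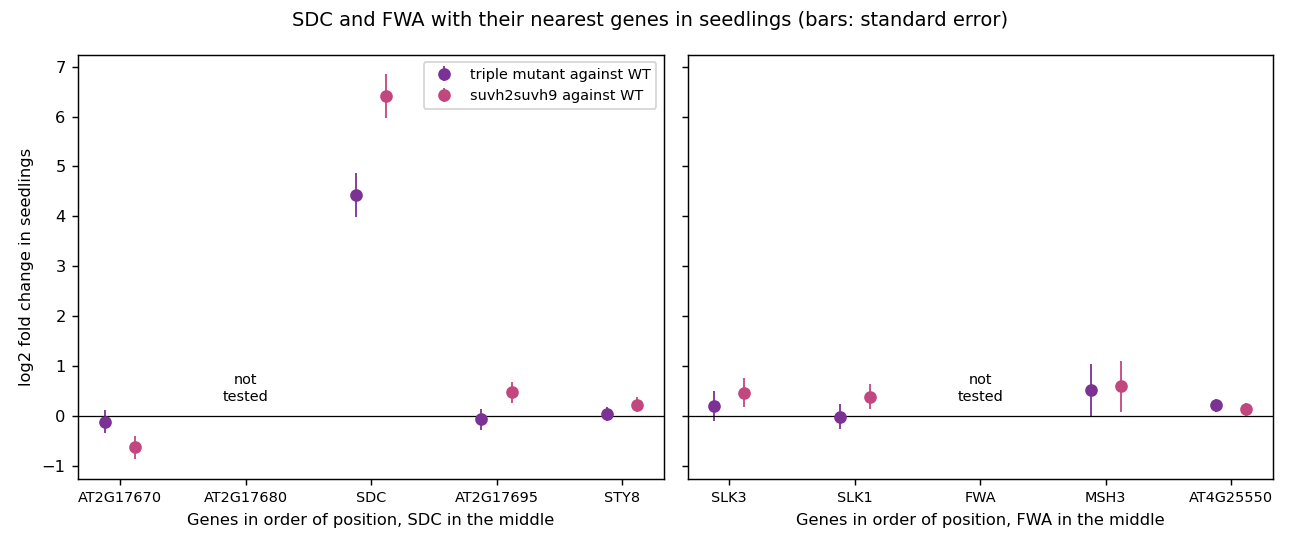
Log2 fold changes against WT in seedlings (vertical axis) of SDC, FWA and their 2 nearest annotated genes on each side in order along the chromosome (horizontal axis), with bars of 1 standard error. SDC stands at 4.43 in the triple mutant and 6.41 in suvh2suvh9, while the tested neighbours lie between -0.63 and 0.59; FWA and AT2G17680 were too low to be tested.

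Of 13 other genes known to be controlled by DNA methylation, 7 could be tested in seedlings, and they moved in both directions. The list was chosen with earlier results of these data known, so its counts and medians are a description only. In the triple mutant 2 of the 7 were higher and 0 lower than in WT (7.21% and 6.08% of all features), and in suvh2suvh9 2 were higher and 2 lower (5.4% and 5.49% of all features), with median log2 fold changes of 0.47 and 0.16 beside medians of 0.000364 and -0.0019 over all features. In pol2a-2 seedlings 1 was higher (1.69% of all features), and in pol2a-1 seedlings 0 were called (0.0224% higher and 0.00448% lower). MRD1, a gene of unclear function known to respond to methionine overproduction, had 5.02 and 13.7 CPM in triple mutant seedlings, 21.1 and 23.4 CPM in suvh2suvh9, 12.97 and 26.1 CPM in pol2a-2 and 0.398 and 0.420 CPM in pol2a-1, against 0.0871 and 0.373 CPM in WT. Its log2 fold change against WT was 5.42 ± 0.66 (adjusted p = 0.00111), 6.66 ± 0.66 (adjusted p = 0.000311) and 6.39 ± 0.66 (adjusted p = 0.00178) in the first 3 of these genotypes. MRD1 overlaps HEI10 on the opposite strand, so its counts are uncertain too.

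MRD1 was raised in pol2a-2 seedlings, where SDC had 0.614 and 0.593 CPM and was not called. EPF2, a secreted peptide that limits stomatal density, was higher by 0.97 ± 0.24 on the log2 scale in the triple mutant (adjusted p = 0.0248) and by 0.90 ± 0.24 in suvh2suvh9 (adjusted p = 0.0390). ROS1, the DNA demethylase that is expressed when its own promoter is methylated, had 9.85 and 9.54 CPM in triple mutant seedlings and 6.50 and 1.57 CPM in suvh2suvh9 seedlings, against 38.4 and 34.6 CPM in WT seedlings. ROS1 fell by 3.16 ± 0.74 on the log2 scale in suvh2suvh9 (adjusted p = 0.0238) and was at -1.89 ± 0.69 in the triple mutant (adjusted p = 0.104). FIS2, a Polycomb gene of the seed, fell by 2.28 ± 0.63 in suvh2suvh9 (adjusted p = 0.0467).

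Of the same list 7 genes were tested in meiocytes and 0 were called against WT in any mutant, where at most 0.556% of all features were called higher and 0.212% lower, so that 0 of 7 is near the background. Among 24 genes of the methylation machinery, SUVH2 and SUVH9 themselves were lower in triple mutant and suvh2suvh9 seedlings (6.08% and 5.49% of all features called lower). MORC6, an ATPase of gene silencing, was higher in the triple mutant (0.61 ± 0.17, adjusted p = 0.0404, 7.21% called higher). In pol2a-2 seedlings 0 were called (1.69% of features higher and 0.937% lower), and likewise in pol2a-1 (0.0224% and 0.00448%). The pol2a-2 seedling libraries differed widely for some of these genes (NRPE1 4.51 and 22.7 CPM) but less for others (SHH1 4.85 and 6.86 CPM). In meiocytes SUVH2 and SUVH9 were called lower in the triple mutant and SUVH9 in suvh2suvh9, where 0.0189% and 0.00471% of features were called lower, and none of the 24 in pol2a-2 (0.0896%) or pol2a-1 (0.212%).

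Among 5 genes that act with the members, 2 were higher and 0 lower in triple mutant seedlings, and 2 were higher and 1 lower in suvh2suvh9 seedlings, of 4 tested. Of all features 7.21% were higher and 6.08% lower in the triple mutant, and 5.4% higher and 5.49% lower in suvh2suvh9. FT, the mobile flowering signal that FWA protein is known to block, had 11.5 and 11.3 CPM in triple mutant seedlings, 0.661 and 0.562 CPM in suvh2suvh9, 1.02 and 2.58 CPM in pol2a-2 and 0.597 and 1.43 CPM in pol2a-1, against 0.406 and 0.298 CPM in WT. FT was higher in the triple mutant than in WT by 5.00 ± 0.47 on the log2 scale (adjusted p = 0.000213) and than in suvh2suvh9 by 4.23 ± 0.44 (adjusted p = 0.0073, 0.193% of features called higher), while FWA had 2 and 4 counts in the triple mutant. In pol2a-2 FT was higher by 2.28 ± 0.49 (adjusted p = 0.0432). SOC1, a flowering activator downstream of FT, fell by 0.93 ± 0.14 in suvh2suvh9 (adjusted p = 0.00391).

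NF-YC4, a transcription factor subunit that QQS protein is known to bind, was higher in suvh2suvh9 by 0.87 ± 0.17 on the log2 scale (adjusted p = 0.0108). Its relative NF-YC2 was higher by 1.47 ± 0.16 in the triple mutant (adjusted p = 0.000606) and 0.89 ± 0.16 in suvh2suvh9 (adjusted p = 0.00816), where QQS was lower. In meiocytes 3 of these 5 genes were tested and 0 were called against WT, again with at most 0.556% of all features called higher and 0.212% lower.

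**Figure D5:**
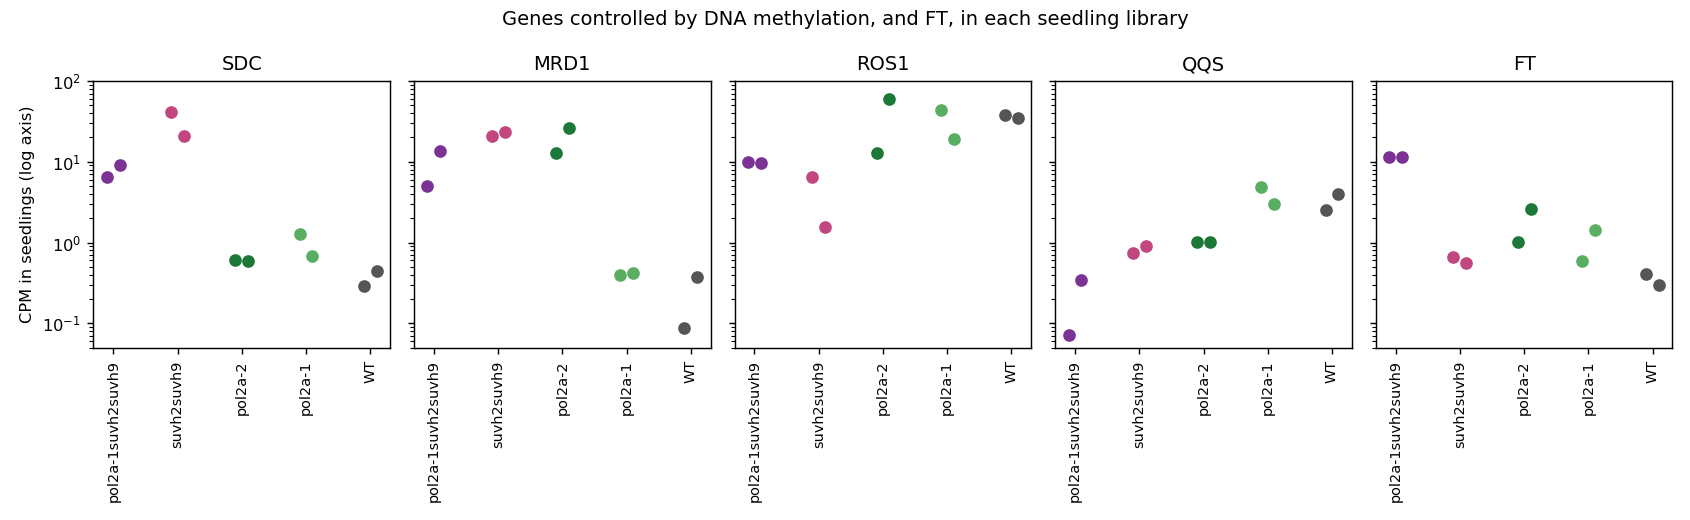
CPM on a logarithmic axis (vertical) of SDC, MRD1, ROS1, QQS and FT in each of the 10 seedling libraries, by genotype (horizontal axis); every point is a library. SDC is high in the triple mutant and suvh2suvh9, MRD1 in pol2a-2 as well, and FT stands above 11 CPM only in the triple mutant, while ROS1 and QQS are lowest in suvh2suvh9 and the triple mutant.

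The features whose log2 CPM over the 10 libraries of a tissue was most like that of a member are given as a description, since libraries share genotype and depth. For SDC in seedlings these were AT5G23380 (Pearson r 0.99), F8H (0.98) and AT5G22505 (0.98), and all 3 lie on chromosome 5 within 397.8 kb of each other. AT5G23380 had 4.33 and 4.79 CPM in triple mutant seedlings and 6.17 and 6.11 CPM in suvh2suvh9 seedlings, against 2.58 and 2.72 CPM in WT seedlings, a far smaller range than that of SDC. QQS in seedlings was most like BGAL1 (0.96), SCPL13 (0.96) and AT5G42250 (0.96), of which SCPL13 had 18.0 and 27.6 CPM in triple mutant seedlings and 48.4 and 45.1 CPM in suvh2suvh9 seedlings, against 76.8 and 80.1 CPM in WT seedlings. In meiocytes SDC was most like ZCF61 (0.92), AT5G62065 (0.91) and AT3G45900 (0.91), and FWA most like AT5G54550 (0.91), AT5G15120 (0.90) and AT5G18900 (0.89). Among features with a mean of at least 1 CPM, FWA was next most like AT5G04840 (0.89) and MAP1D (0.85).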

How the data were processed

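RNA was sequenced from 2 samples in each of 10 groups, called biological replicates for meiocytes per the labels; nothing says whether they are separate plantings, so p-values measure the spread between these samples only. Whole-number counts per gene and per transposable element were deposited with feature lengths; per the submitters' processing notes the authors used cutadapt 3.4, STAR 2.7.9a and featureCounts 2.0.0 on TAIR10. Those notes give no settings for strand, shared bases or multiple hits, and the library kit does not mark strand.

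Each tissue was fitted with edgeR 4.0.16 (R 4.3.3) over its 10 libraries: TMM scaling, filterByExpr with a minimum count of 10, the quasi-likelihood test without a replicate block, and Benjamini-Hochberg adjustment over all tested features. SDC and QQS passed the filter in seedlings, and SDC and FWA in meiocytes. Comparisons of tissues used a fit of all 20 libraries. The fitting steps were tested on simulated data. These covered only features with more counts than SDC or FWA had in meiocytes, at less spread than the meiocyte libraries showed. Count ratios have exact conditional 95% intervals, and a group at 0 has a floor of 3 counts; both cover counting error only. CPM and FPKM were computed from the deposited counts and lengths. Sequence work and figures used Python 3.11.15, pandas 2.3.3, numpy 2.4.6 and scipy 1.17.1.

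The members and gene lists were chosen with earlier results of these data known. Genes named were the members, their 2 neighbours on each side, at most 4 called genes a list and comparison with WT by smallest p, and the 3 features most like a member by Pearson r of log2 CPM (prior count 2), with those of at least 1 CPM where the first 3 were lower. Alternatives were DESeq2 1.42.0, its size factors, no filter, other sets of libraries, organellar genes left out, pol2a alleles joined, a replicate block and each library left out.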

Additional observations from a re-analysis of the deposited data

How the results depend on the processing

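Of 310 values recomputed under alternatives other than leaving out a library, 283 kept their direction and their side of the threshold, 3 lost a call, 22 gained one and 2 changed sign. Without organellar genes all 47 kept both, and so did all 47 with a replicate block, where SDC in seedlings was at 4.46 in the triple mutant and 6.38 in suvh2suvh9 against WT. The labels do not say whether the numbers pair the samples. Deviations of same-numbered libraries correlated at -0.18 to 0.22 in meiocytes and -0.17 to 0.15 in seedlings over 10 pairs of groups each. No strong shared shift was seen, but this cannot show whether samples were grown or prepared together. With all 20 libraries in 1 fit, QQS in seedlings lost its calls for the triple mutant (-3.91) and suvh2suvh9 (-1.94) against WT and for the triple mutant against pol2a-1 (-4.10), and SDC in meiocytes was called with adjusted p of 0.00918, 0.00996 and 0.0406 in the triple mutant, suvh2suvh9 and pol2a-2 against WT and 0.00111 for the averaged suvh2suvh9 effect. The share of all features called in that fit was not computed for these comparisons, and the cause was not tested. DESeq2 added calls in seedlings for SDC in the triple mutant against suvh2suvh9 (-1.99) and its non-additivity (-3.45) and for QQS in pol2a-2 against WT (-1.73) and pol2a-1 (-2.06), and in meiocytes for SDC with adjusted p of 0.0363 in the triple mutant and 0.0102 in suvh2suvh9 against WT and 0.000426 for the averaged effect. Without a filter the same 7 were called, at -1.99, -3.43, -1.73, -2.05, 0.0380, 0.00928 and 0.000410 in that order, with SDC in pol2a-1 against WT (1.44), QQS in the triple mutant against suvh2suvh9 (-1.98) and non-additivity of QQS (-2.30). With only the groups compared, SDC in triple mutant against pol2a-1 meiocytes had adjusted p = 0.04995. QQS changed sign with the pol2a alleles joined (-0.40), and so did the tissue difference of the pol2a-1 effect on SDC with DESeq2 size factors (adjusted p = 1.00).

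Leaving out each library in turn, log2 fold changes in seedlings ran from -2.27 to -1.60 for QQS in suvh2suvh9 against WT, -0.050 to 0.70 for QQS in pol2a-1 against WT, -2.39 to -1.40 for SDC in the triple mutant against suvh2suvh9 and -0.53 to 0.028 for the averaged pol2a-1 effect on SDC. Adjusted p in meiocytes ran from 0.0465 to 0.380 for the averaged suvh2suvh9 effect on SDC, where leaving out either pol2a-2 library gave a call, and from 0.452 to 1.00 for the averaged pol2a-1 effect. Between WT tissues SDC had adjusted p of 0.00749 to 0.204, and the tissue differences of the triple mutant, suvh2suvh9 and pol2a-1 effects 0.442 to 1.00, 0.377 to 1.00 and 0.546 to 1.00. FWA in meiocytes had adjusted p of 0.691 to 1 in suvh2suvh9, 0.658 to 0.975 in pol2a-2 and 0.532 to 1 in pol2a-1 against WT, 0.700 to 0.982 for pol2a-2 against pol2a-1, 0.601 to 1.00 and 0.475 to 0.904 for the averaged suvh2suvh9 and pol2a-1 effects and 0.723 to 1.00 for non-additivity, and its log2 fold change in the triple mutant against pol2a-1 ran from -0.35 to 6.16. Over all features in meiocytes, 9 were called higher in the triple mutant against WT by edgeR and 453 by DESeq2. For the triple mutant against suvh2suvh9 in seedlings, edgeR called 43 higher and 12 lower, and DESeq2 234 and 173.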
